A study of Mus musculus with 64 samples.

Results

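The MHC class II presentation genes were followed as 7 members, *Cd74*, *H2-Aa*, *H2-Ab1*, *H2-Eb1*, *H2-DMa*, *H2-DMb1* and *Ciita*, taken by gene symbol from a batch-corrected count table of 25239 genes. All 7 had a row in that table. The libraries came from mouse retinal microglia after intravitreal injection of AAV2, the adeno-associated virus serotype used for ocular gene delivery, and each library was made from 600 cells sorted from 1 retina. The animals were Cx3cr1CreER:R26-tdTomato mice of both sexes aged 3, 9 or 18 months, all given tamoxifen so that Cx3cr1-expressing cells carried the red reporter tdTomato. Retinae were naive (uninjected), or collected 12 days (D12) or 28 days (D28) after a null AAV2 without a transgene at 1e10 genome copies per eye. The vector carried a CMV promoter and a sequence that inhibits TLR9. Cx3cr1 drives the CreER that activates the reporter when tamoxifen is given, and monocytes and border macrophages also express Cx3cr1. The tamoxifen was given as eye drops with weeks of washout before use, to label microglia more specifically. There were no vehicle-injected libraries, so in these RNA data the injection and the vector cannot be told apart. The authors examined PBS-injected eyes by imaging and flow cytometry, and reported no changes of the microglial surface markers there.

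The comparisons used 62 of the 64 libraries, 19 naive, 22 D12 and 21 D28, in 18 groups of 2 to 4 libraries defined by age, sex and day. Library totals in the table ran from 1468478 to 9836173 counts with a median of 4188992, so that 3 counts corresponded to between 0.305 and 2.04 counts per 1e6 (CPM). The 18-month-old female D28 replicate 1 was left out because its sex-linked transcripts went against its label, with *Xist* at 0 CPM and Y-linked genes at 388 CPM. The 9-month-old male D28 replicate 1, with *Xist* at 255 CPM and Y-linked genes at 0 CPM, was not in the corrected table. The 18-month-old male D28 replicate 4 carries D12 in another label. It was used at D28, and moving it to D12 or leaving it out changed no call for a member. Microglial transcripts were present in every library: 9 microglial markers, *P2ry12* and *Tmem119* among them, summed to between 18508 and 30394 CPM in naive libraries, 3599 to 16199 CPM at D12 and 6898 to 18248 CPM at D28.

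MHC class II molecules present peptides from internalised protein to CD4+ T cells. An alpha chain (*H2-Aa*) pairs with a beta chain (*H2-Ab1*) to form I-A, the only complete class II molecule of C57BL/6 mice, which make the I-E beta chain *H2-Eb1* without a working alpha partner. The invariant chain, encoded by *Cd74*, guides the new pair to the endosome and holds its groove until H2-DM, a heterodimer of *H2-DMa* and *H2-DMb1*, exchanges the last invariant chain fragment for a peptide. *Ciita* encodes the coactivator that these genes need. It binds no DNA itself and acts through factors bound to paired boxes, the X and Y boxes, upstream of class II genes. Resting microglia hold class II at low levels, and interferon-gamma is the classic inducer of *Ciita*, with *Irf1* as one of the factors in between.

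In the GRCm38 assembly (GENCODE vM21) the 5 H2 genes lie together on chromosome 17, *H2-DMa* at chr17:34119541-34139101, *H2-DMb1* at chr17:34153072-34160230, *H2-Ab1* at chr17:34257689-34269419, *H2-Aa* at chr17:34282744-34287823 on the minus strand, and *H2-Eb1* at chr17:34305867-34316674. *Ciita* lies at chr16:10480059-10528418. RefSeq promoter windows of 300 bases (250 before to 50 after the start site, GRCm38.p6) matched 4 of the 7 members, *H2-Aa*, *H2-Eb1*, *H2-DMa* and *H2-DMb1*. *H2-Aa*, *H2-Eb1* and *H2-DMb1* had windows that held GNAAC, the core of the X box, followed after 20 to 40 bases by ATTGG, the core of the Y box, and the stretches are shown because they hold the elements through which *Ciita* is known to act. Capitals mark the first and the second box, and each stretch is read 5′ to 3′ on the strand of its gene:
*H2-Aa*, chr17:34287847-34287924, minus strand: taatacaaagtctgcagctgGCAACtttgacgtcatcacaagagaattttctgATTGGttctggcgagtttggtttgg
*H2-Eb1*, chr17:34305756-34305832, plus strand: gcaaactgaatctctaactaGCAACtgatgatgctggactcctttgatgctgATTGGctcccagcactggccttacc
*H2-DMb1*, chr17:34153077-34153154, plus strand: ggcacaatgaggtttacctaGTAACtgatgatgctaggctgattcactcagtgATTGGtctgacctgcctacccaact

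The pair of boxes lay from -81 to -44 relative to the start site in *H2-Aa*, from -91 to -55 in *H2-Eb1* and from -94 to -57 in *H2-DMb1*. Positions count from the RefSeq start sites, which for *H2-Aa* and *H2-Eb1* are the ends of the GENCODE genes given above. For *H2-DMb1* the RefSeq start site (chr17:34153191) lies inside the longer GENCODE gene, and so does the stretch shown, as do both RefSeq start sites of *H2-DMa* in its GENCODE gene. The boxes were 28, 27 and 28 bases apart. The first box was the same word in *H2-Aa* and *H2-Eb1* and differed at its second base in *H2-DMb1*. Both windows of *H2-DMa* (chr17:34122582-34122881 and chr17:34125268-34125567) lacked the pair. The letters searched were chosen with these sequences known. The pair was present, on either strand, in 1119 of 32851 promoter windows (3.41%), and ATTGG alone was present in 12289 (37.4%). A match is a description of the letters and not of a bound site.

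**Figure D1:**
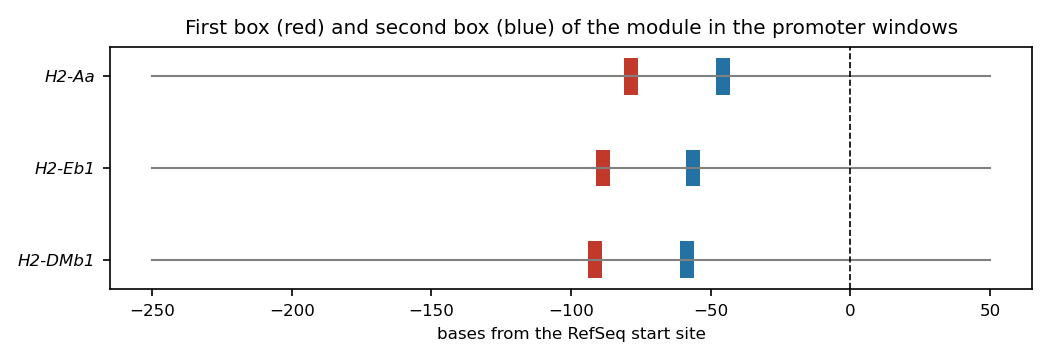
Positions of the first box (red) and the second box (blue) in the promoter windows of *H2-Aa*, *H2-Eb1* and *H2-DMb1*, in bases from the RefSeq start site on each gene's own strand. The pair lies upstream of the start site in all 3 windows, with 27 or 28 bases between the boxes, while neither *H2-DMa* window holds it.

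*Cd74*, *H2-Aa*, *H2-Ab1* and *H2-Eb1*, called the chain genes here, rose together after AAV2. Summed over the 7 members, class II transcripts took 0.0882 to 0.523% of all counts in naive libraries (median 0.209%), 0.102 to 5.04% at D12 (median 2.33%) and 0.698 to 3.60% at D28 (median 1.27%). Per kilobase of exon, the naive median level was highest for *Cd74* at 435 CPM per kb, followed by *H2-DMa* at 243, *H2-Ab1* at 231, *H2-Aa* at 170, *H2-DMb1* at 137 and *H2-Eb1* at 53.7 CPM per kb. At D12 the order was *Cd74* at 9149, *H2-Ab1* at 3669, *H2-Aa* at 3250, *H2-Eb1* at 1144, *H2-DMa* at 400 and *H2-DMb1* at 240 CPM per kb. At D28, *Cd74* stood at 4507, *H2-Aa* at 1937, *H2-Ab1* at 1775, *H2-Eb1* at 681, *H2-DMa* at 335 and *H2-DMb1* at 176 CPM per kb. *Ciita* was the lowest member at each stage, with medians of 0, 2.87 and 0.732 CPM per kb. By these medians over all ages and sexes, the peptide exchange genes stood beside the I-A chains in naive libraries and below them after injection. In the D12 libraries of 18-month-old females, however, the CPM ratio of *H2-DMa* to *H2-Ab1* had a median of 2.54 (0.237 to 5.30). The lengths are merged GENCODE exons, 2668 bases for *H2-DMa*, while the counts used the refGene annotation. Levels per kb compared between genes are therefore approximate. These are bulk libraries, and more cells holding a transcript cannot be told apart from more transcript per cell.

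*Cd74*, the invariant chain (chr18:60803848-60812652, GRCm38), was measured in 3-month-old females at 2293, 668, 703 and 889 CPM in naive libraries, at 22157, 12899, 9814 and 8762 CPM at D12 and at 3415, 6382, 5132 and 8758 CPM at D28. In 3-month-old males the naive libraries held 417, 598 and 514 CPM, the D12 libraries 21915, 18906, 23661 and 26714 CPM and the D28 libraries 7000, 9152 and 5639 CPM. In both sexes the 3 stages were ordered naive, D28, D12 by their means, and no injected library fell to the level of a naive one. At 9 months, female libraries held 1327, 308 and 671 CPM when naive, 18146, 3845 and 4376 CPM at D12 and 5090, 8760, 19166 and 14920 CPM at D28. Male libraries of that age held 1083 and 1708 CPM when naive, 8106, 9266, 13012 and 21292 CPM at D12 and 5323, 5833 and 5782 CPM at D28. In 9-month-old females, unlike in the other 3 groups up to that age, the D28 mean (11984 ± 6275 CPM, SD, n = 4) was above the D12 mean (8789 ± 8107 CPM, SD, n = 3), with ranges that overlapped.

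At 18 months, male libraries held *Cd74* at 413, 208, 779 and 78.5 CPM when naive, at 15073, 9226 and 32468 CPM at D12 and at 4899, 9866, 9208 and 4328 CPM at D28. Female libraries of that age held 616, 248 and 247 CPM when naive and 6394, 7674 and 5835 CPM at D28. Their 4 D12 libraries held 239, 189, 19520 and 1197 CPM. Of those D12 libraries 2 were below the naive range, the fourth was above it, and the third lay within the D12 range of the 18-month-old males. Among the 18 groups the mean was highest in 3-month-old males at D12 (22799 ± 3266 CPM, SD, n = 4) and lowest in naive 18-month-old males (370 ± 305 CPM, SD, n = 4). Neighbours in that order overlapped in range in 17 of 17 pairs, for *Cd74* as for each of the other members. The difference between neighbouring means exceeded their combined SD in 1 pair for *H2-Aa*, 1 pair for *H2-DMa* and 0 pairs for the rest.

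**Figure D2:**
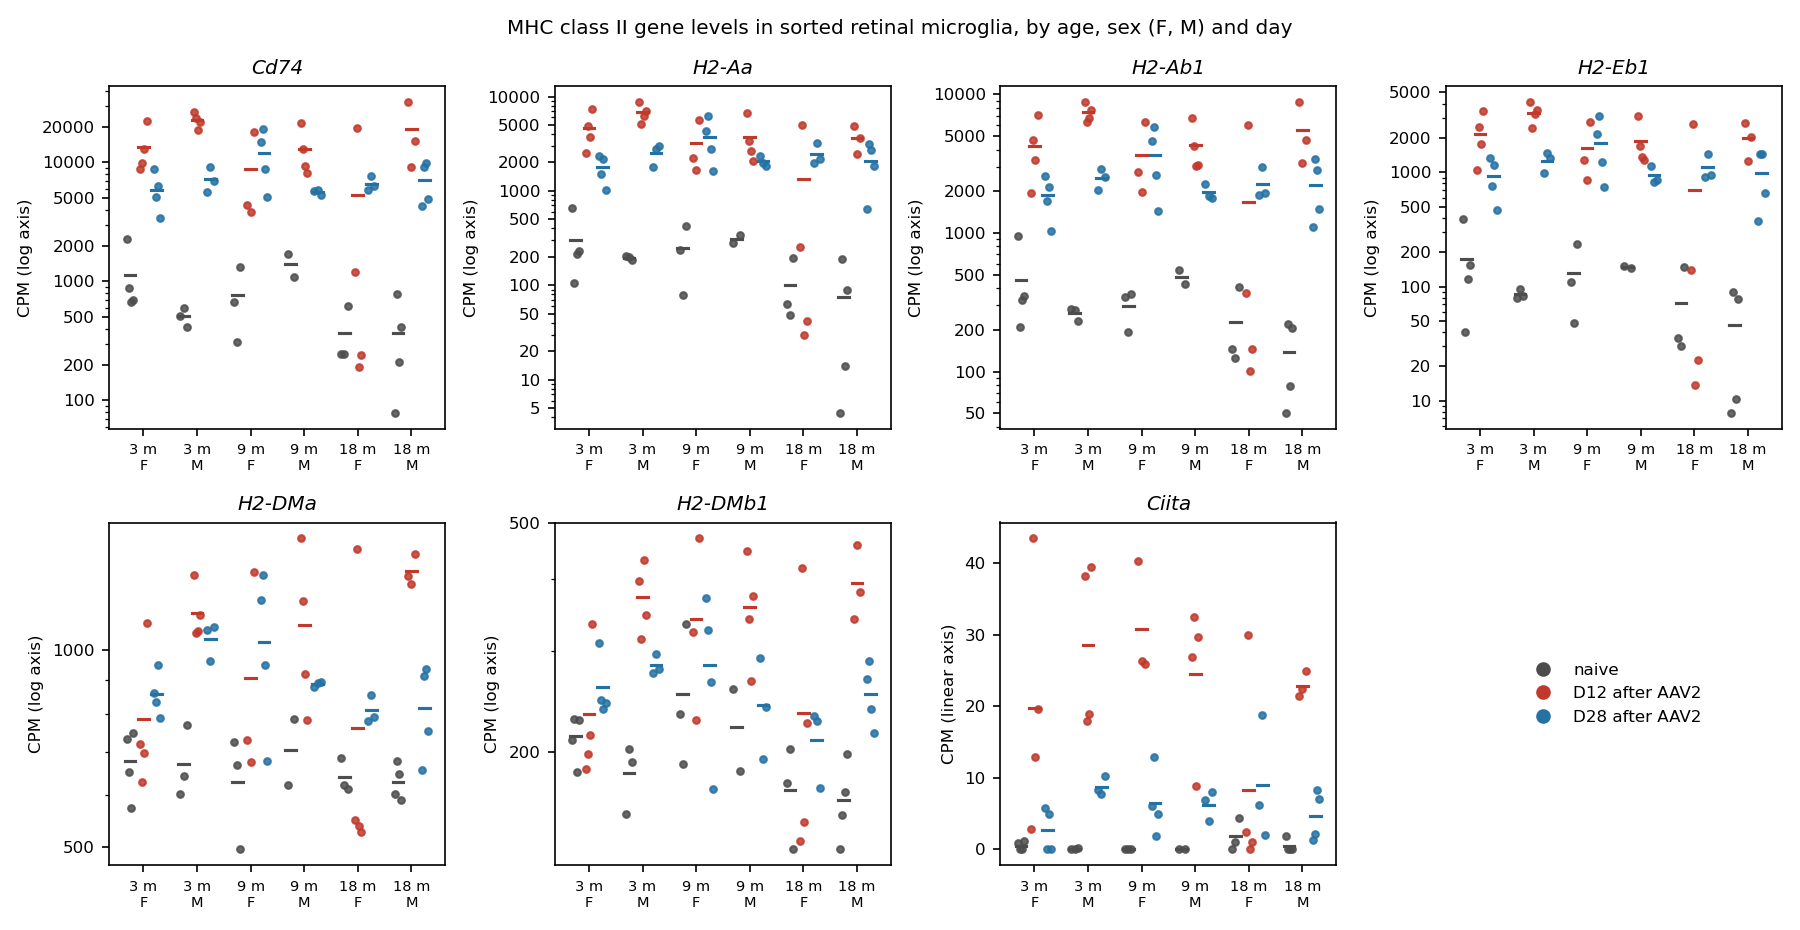
Level of each member in CPM (log axis, linear for *Ciita*) in every library, by age in months (m) and sex (F, M), with naive libraries in grey, D12 in red and D28 in blue, and bars at the group means. *Cd74*, *H2-Aa*, *H2-Ab1* and *H2-Eb1* separate from naive in 5 of 6 age and sex groups at D12, while *H2-DMa* runs only from 496 to 1486 CPM over all libraries.

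*H2-Ab1*, the I-A beta chain, followed the same pattern. In 3-month-old females it was measured at 954, 326, 354 and 208 CPM when naive, 7094, 3378, 4657 and 1936 CPM at D12 and 1027, 2152, 1692 and 2588 CPM at D28. In 3-month-old males it was measured at 232, 280 and 284 CPM when naive, 7714, 6796, 6274 and 8873 CPM at D12 and 2520, 2894 and 2038 CPM at D28. The male naive libraries lay close together, whereas female naive replicate 1 was well above the other 3 and just under the lowest female D28 library. At 9 months the naive values were 362, 194 and 343 CPM in females and 431 and 539 CPM in males. The D12 values of that age were 6284, 1965 and 2738 CPM in females and 3116, 3059, 4238 and 6805 CPM in males, and the D28 values were 1441, 2642, 5842 and 4624 CPM in females and 1776, 1863 and 2241 CPM in males. None of these injected libraries overlapped the naive ones of its age and sex. At 18 months, males rose from 207, 78.4, 221 and 50.3 CPM to 4702, 3173 and 8766 CPM at D12 and stood at 1488, 2850, 3424 and 1110 CPM at D28. Females of that age held 410, 125 and 145 CPM when naive, 146, 101, 6030 and 369 CPM at D12 and 1928, 2968 and 1876 CPM at D28, so that 3 of their 4 D12 libraries lay within or below the naive range.

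*H2-Aa*, the I-A alpha chain, ranged from 4.43 to 652 CPM over the naive libraries (median 192), from 29.7 to 8837 CPM at D12 (median 3667) and from 644 to 6245 CPM at D28 (median 2185). The lowest naive values, 4.43 and 13.9 CPM, belonged to 18-month-old males, in which D12 libraries held 3641, 2478 and 4853 CPM. *H2-Eb1*, the I-E beta chain, ranged from 7.82 to 388 CPM when naive (median 89.6), from 13.9 to 4163 CPM at D12 (median 1909) and from 375 to 3136 CPM at D28 (median 1137). For both genes the libraries below the naive maximum at D12 were from 18-month-old females, which held *H2-Aa* at 41.7, 29.7, 4993 and 255 CPM and *H2-Eb1* at 23.0, 13.9, 2646 and 140 CPM. At D28 every library of every age and sex was above all naive libraries of its own group for *Cd74*, *H2-Aa*, *H2-Ab1* and *H2-Eb1*.

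*H2-DMa* and *H2-DMb1*, which exchange the peptide, moved over a much narrower range. *H2-DMa* in 3-month-old males was 767, 643 and 602 CPM when naive, 1134, 1071, 1061 and 1305 CPM at D12 and 1085, 962 and 1076 CPM at D28. In 18-month-old males it was 589, 647, 678 and 603 CPM when naive, 1407, 1266 and 1299 CPM at D12 and 753, 937, 915 and 657 CPM at D28. These were the 2 groups in which all D12 libraries exceeded all naive ones, and in 18-month-old females the D12 libraries were at 526, 538, 1430 and 550 CPM against 612, 622 and 684 CPM when naive. *H2-DMb1* ranged from 135 to 333 CPM in naive libraries, from 140 to 471 CPM at D12 and from 173 to 371 CPM at D28. Its highest contrast was in 18-month-old males, with 199, 171, 155 and 136 CPM when naive and 379, 458 and 340 CPM at D12. *H2-DMb1* has a close paralog, *H2-DMb2*, and reads shared between them were not tested.

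*Ciita*, the coactivator, was near the limit of detection in naive microglia. It had 0 counts in 13 of 19 naive libraries and at most 10 counts in any of them. At D12 it had 0 counts in 1 of 22 libraries and reached 255 counts, and at D28 it had 0 counts in 2 of 21 libraries and reached 84 counts. The D12 counts were 50, 59, 216 and 11 in 3-month-old females, 110, 60, 80 and 171 in 3-month-old males, 255, 98 and 150 in 9-month-old females, 68, 16, 157 and 130 in 9-month-old males and 222, 99 and 43 in 18-month-old males. In 18-month-old females they were 2, 0, 111 and 9, and the 111 counts came from the library that was also high for the other members. As CPM, the D12 libraries of 9-month-old females held 25.9, 26.3 and 40.2 and those of 18-month-old males 24.8, 22.4 and 21.4, against D28 maxima of 12.9 and 8.33 CPM in the same groups.

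All naive libraries at 9 months had 0 *Ciita* counts, which allows a level of up to 3 counts over each group. Against that floor, *Ciita* was at least 130-fold higher at D12 and at least 27.8-fold higher at D28 in 9-month-old females, and at least 99.3-fold and 22.3-fold higher in males of that age. Pooled over the libraries of a group, the ratio of D12 to naive was 43.4 in 3-month-old females (95% exact interval 22.6 to 95.8), 66.0 in 18-month-old males (31.7 to 165) and 5.96 in 18-month-old females (3.42 to 11.2). In 3-month-old males the naive group held 1 count, and the ratio of 316 has an interval of 56.4 to 12515. For D28 the pooled ratios were 4.78 (2.33 to 11.05), 11.8 (5.43 to 30.3) and 6.63 (3.79 to 12.5) in 3-month-old females, 18-month-old males and 18-month-old females, respectively. In 3-month-old males, against the same 1 naive count, the D28 ratio of 93.5 has an interval of 16.4 to 3736. These intervals and floors cover counting error only and not the spread between libraries. In 18-month-old females, 1 library held 84 of the 116 D28 counts and 1 held 10 of the 14 naive counts. The fit over separate libraries gave a D28 log2 fold change of 2.49 there (standard error 1.72).

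At D12, *Cd74*, *H2-Aa*, *H2-Ab1*, *H2-Eb1* and *Ciita* were each raised in 5 of the 6 age and sex groups, the exception being 18-month-old females. The test was edgeR's quasi-likelihood test against a log2 fold change of 1 across all genes, called at an adjusted p under 0.05. This made 25 of 42 tests of the members, all upward, where the share called higher over all genes in the same comparisons was 1.64%. The log2 fold change of *Cd74* was 3.72 in 3-month-old females (standard error 0.42, adjusted p = 3.3e-05) and 5.59 in 3-month-old males (0.22, adjusted p = 1.29e-10). It was 3.71 in 9-month-old females (0.79, adjusted p = 0.037), 3.41 in 9-month-old males (0.59, adjusted p = 0.022) and 5.76 in 18-month-old males (0.64, adjusted p = 3.69e-05). *H2-Aa*, *H2-Ab1* and *H2-Eb1* had log2 fold changes of 3.33 to 4.06 in 3- and 9-month-old females and 9-month-old males. In 3- and 18-month-old males their log2 fold changes were 4.91 to 5.72. The adjusted p of *Ciita* was 2.68e-06 in 3-month-old males and at most 0.0212 in the other 4 groups.

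*H2-DMa* and *H2-DMb1* passed in 0 of 12 tests at D12. Their log2 fold changes were 0.36 to 1.22 and 0.27 to 1.42, positive in 6 of 6 groups each, and 2 of the 12 had an unadjusted p under 0.05, against 7.84% of tests over all genes. The largest were in 18-month-old males, at 1.22 for *H2-DMa* (standard error 0.20, adjusted p = 0.48) and 1.42 for *H2-DMb1* (0.22, adjusted p = 0.16). A plain quasi-likelihood test with a log2 fold change over 1 called *H2-DMa* in 18-month-old males and *H2-DMb1* in 3- and 18-month-old males, where it called 4.21% of all genes higher. Without 18-month-old male D12 replicate 3, *H2-DMb1* passed the main test as well (log2 fold change 1.58, adjusted p = 0.047).

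Several of the D12 calls rested on single libraries. In 9-month-old males, which had 2 naive libraries, the calls of *Cd74*, *H2-Aa*, *H2-Ab1* and *H2-Eb1* were each lost without either one, with log2 fold changes of 3.16 to 3.97 and adjusted p of 0.121 to 0.269. In 9-month-old females, leaving out naive replicate 2 ended the calls of all 4 genes (adjusted p 0.0532 to 0.135), and leaving out naive replicate 3 or D12 replicate 1 ended those of *Cd74*, *H2-Aa* and *H2-Eb1* (0.0637 to 0.166). The *Cd74* call in that group was also lost without D28 replicate 2 or 4 (adjusted p = 0.0543 and 0.0611), and *H2-DMa* and *H2-DMb1* turned to log2 fold changes of -0.08 and -0.09 without D12 replicate 1. The call of *Ciita* in 3-month-old females was lost without naive replicate 2 or 4 or D12 replicate 3 (adjusted p 0.0686 to 0.144). In 3- and 18-month-old males no D12 call of a member was lost on leaving out any single library.

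Other fits also ended D12 calls. That of *Ciita* in 3-month-old females was lost in DESeq2 (adjusted p = 0.582) and with uncorrected counts and no batch term (0.056). The *Cd74* call in 9-month-old females was lost in DESeq2 (0.107), with uncorrected counts with or without collection day in the model (0.0591 and 0.128) and in a fit of the 2 groups compared (0.0923), and the *H2-Aa* call there with 1 fit over all 18 groups (0.0504). In 9-month-old males the 1 fit ended the calls of all 4 chain genes (0.142 to 0.205), the fit of the 2 groups those of *Cd74*, *H2-Aa* and *H2-Ab1* (0.060 to 0.0855), and uncorrected counts with no batch term that of *H2-Aa* (0.0527).

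**Figure D3:**
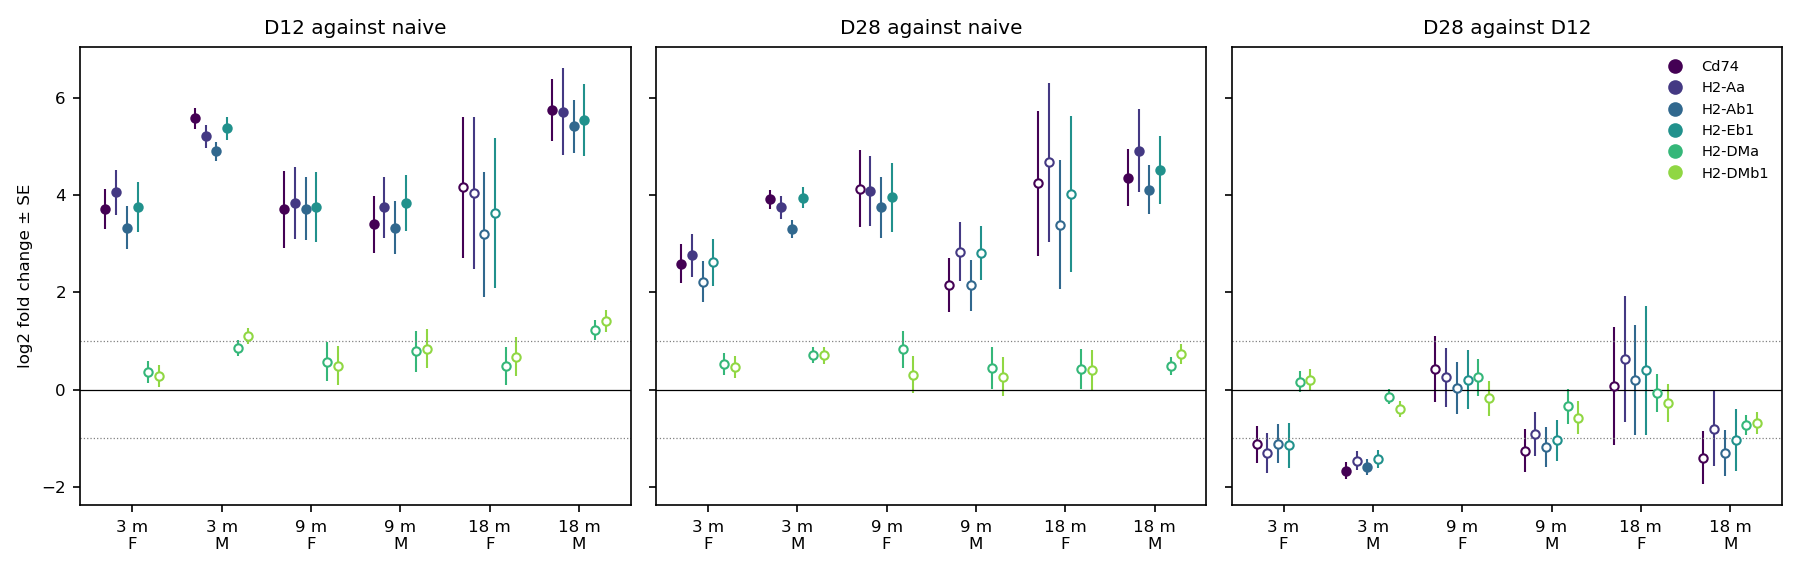
Log2 fold change with its standard error for 6 members at D12 against naive, D28 against naive and D28 against D12 in the 6 age and sex groups (*Ciita* is left out because most naive libraries held 0 counts). Filled points passed the test and open points did not, and dotted lines mark log2 fold changes of 1 and -1. Against naive, the *H2-DMa* and *H2-DMb1* points lie at 1.42 or below while the other 4 genes lie between 2.15 and 5.76. At D28 against D12 the 6 genes lie between -1.67 and 0.63.

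Microglia of 18-month-old females differed in their spread at D12. Their log2 fold changes of 4.16 for *Cd74* (standard error 1.45, adjusted p = 0.82), 4.05 for *H2-Aa* (1.56, adjusted p = 0.96) and 3.19 for *H2-Ab1* (1.28, adjusted p = 1.0) were of the size seen in other groups, but with much larger standard errors. None of the 11159 genes tested was called there by edgeR, 485 had an unadjusted p under 0.05, and DESeq2 called none of the members. With 1 fit over all 18 groups, *Cd74* was called there (log2 fold change 4.13, adjusted p = 0.0395). Without D12 replicate 3 the log2 fold change of *Cd74* was 0.82, that of *H2-Eb1* was 0.00064, and those of *H2-DMa* and *Ciita* turned to -0.09 and -0.33.

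The 4 D12 libraries of 18-month-old females also differed in other genes. In replicates 1 to 4 the members summed to 1202, 1024, 35066 and 2653 CPM, and *Irf1*, an interferon-induced transcription factor, stood at 96.7, 74.7, 502 and 274 CPM. The 9 microglial markers summed to 16199, 12782, 4571 and 4978 CPM. T cell markers summed to 1.60, 12.5, 365 and 174 CPM and markers of monocytes and border macrophages to 17.6, 35.9, 157 and 1006 CPM. Against the 3 naive libraries of their own age and sex, replicates 1 and 2 lay below in members' sum (naive 1276 to 2120 CPM) and within the range of T cell markers (0.760 to 17.0 CPM), and *Irf1* was above the naive values in replicate 1 and within them in replicate 2 (32.7 to 78.9 CPM). Their microglial marker sums lay below those of all 19 naive libraries. Replicate 4 had a microglial marker sum near that of replicate 3, with a members' sum far below it. The part of these differences in the class II result was not tested.

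**Figure D4:**
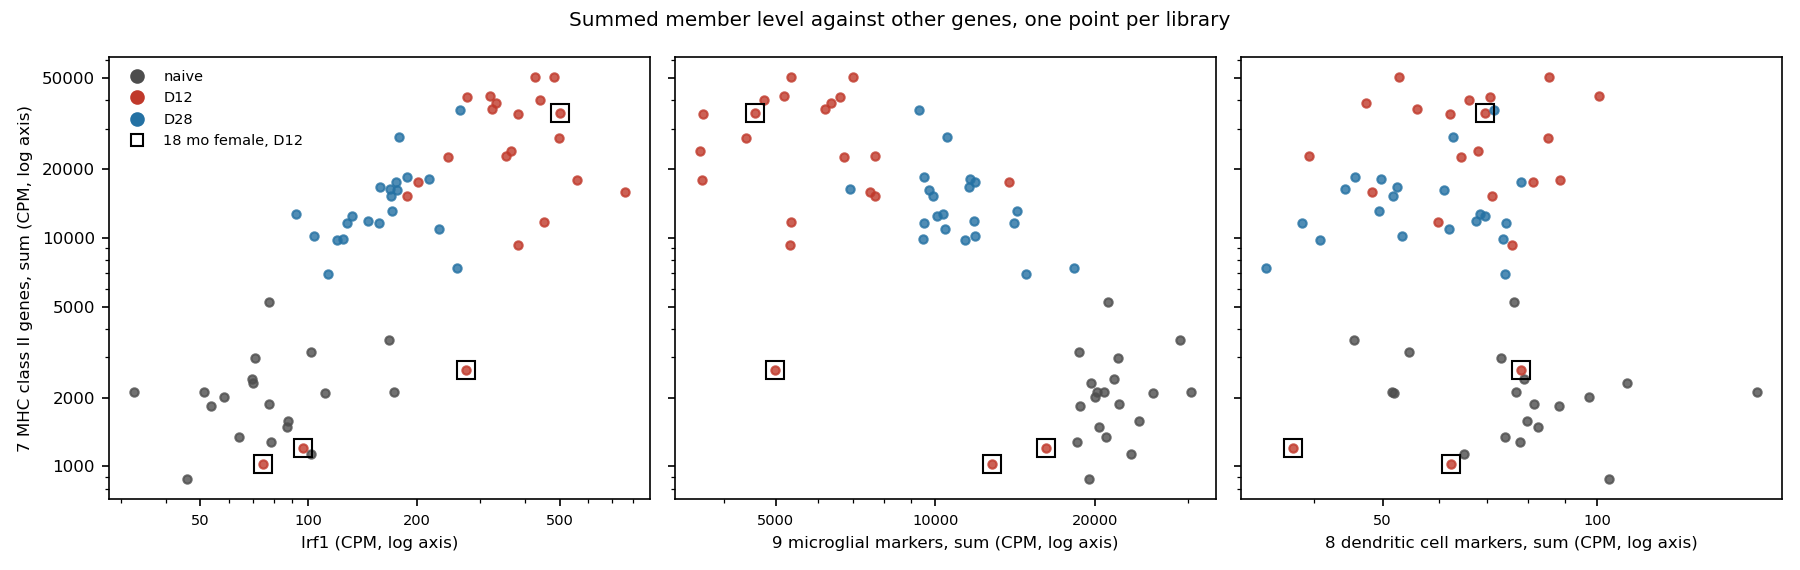
Sum of the 7 members in each library against *Irf1*, the sum of 9 microglial markers and the sum of 8 dendritic cell markers, all in CPM on log axes, with naive libraries in grey, D12 in red, D28 in blue and squares around the 4 D12 libraries of 18-month-old females. Of the squared libraries, 3 sit at members' sums of 1024 to 2653 CPM, below all other D12 libraries, and dendritic cell marker sums overlap between the stages.

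At D28 the class II genes were still above naive, with fewer calls. The 5 genes *Cd74*, *H2-Aa*, *H2-Ab1*, *H2-Eb1* and *Ciita* gave 16 calls of the 42 tests of the 7 members, all upward, where 0.359% of tests over all genes were called higher. In 3-month-old males all 5 were called, with *Cd74* at 3.91 on the log2 scale (standard error 0.20, adjusted p = 5.01e-08). In 18-month-old males the 4 chain genes were called at 4.11 to 4.92 and *Ciita* was not (adjusted p = 0.27). In 3-month-old females *Cd74* (2.60, standard error 0.40, adjusted p = 0.011) and *H2-Aa* (2.76, 0.44, adjusted p = 0.011) were called. In 9-month-old females *H2-Aa*, *H2-Ab1*, *H2-Eb1* and *Ciita* were called, and *Cd74* had a log2 fold change of 4.14 with an adjusted p of 0.057. In 9-month-old males *Ciita* alone was called (adjusted p = 0.030), with *Cd74* at 2.15 (standard error 0.56, adjusted p = 0.74).

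In 18-month-old females no gene passed the test at D28, although every D28 library was above every naive one for the 4 chain genes. The log2 fold change of *Cd74* there was 4.25 (standard error 1.49), and in a fit of those 2 groups alone it was called at 4.22 (adjusted p = 0.0387). Counting groups in which all injected libraries exceeded all naive ones, *Cd74*, *H2-Aa*, *H2-Ab1* and *H2-Eb1* did so in 5 of 6 groups at D12 and in 6 of 6 at D28, and *Ciita* in 5 and 3. *H2-DMa* did so in 2 and 4 groups and *H2-DMb1* in 3 and 3. Over all genes with 10 or more counts the share was 7.11% at D12 and 5.15% at D28. D12 and D28 were compared with the same naive libraries.

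The D28 calls in females and in 9-month-old males depended on single libraries. In 3-month-old females, leaving out naive replicate 2 or 3 ended the calls of *Cd74* and *H2-Aa* (adjusted p 0.0533 to 0.072), leaving out D28 replicate 4 ended that of *Cd74* (0.0718), and leaving out naive replicate 1 or D28 replicate 1 brought *H2-Ab1* and *H2-Eb1* past the threshold (0.00258 to 0.0443). In 9-month-old females the calls of *H2-Aa*, *H2-Ab1* and *H2-Eb1* were lost without naive replicate 2 or 3 or D28 replicate 3 or 4 (0.0868 to 0.162), those of *H2-Aa* and *H2-Eb1* also without D28 replicate 2 (0.0591 and 0.0582) and that of *H2-Eb1* without D12 replicate 3 (0.0564). The call of *Ciita* there was lost without naive replicate 2 or 3 or D28 replicate 4 (0.0505 to 0.0627), and *Cd74* was gained without naive replicate 1, D12 replicate 1 or 2 or D28 replicate 1 (0.0131 to 0.0481). In 9-month-old males the call of *Ciita* was lost without either naive library, D12 replicate 4 or D28 replicate 2 or 4 (0.0538 to 0.48). In 18-month-old males *Ciita* was gained without naive replicate 4 (adjusted p = 0.017).

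The D28 calls depended on the fit as well. In 3-month-old females *Cd74* and *H2-Aa* were both lost in DESeq2 (adjusted p = 0.515 and 0.379), with uncorrected counts and no batch term (0.388 and 0.068) and with 1 fit over all groups (0.697 and 0.724). In 3-month-old males the 1 fit ended all 5 calls (0.128 to 0.318). In 9-month-old females it ended those of *H2-Aa*, *H2-Eb1* and *Ciita* (0.0895 to 0.0954), uncorrected counts ended those of the 3 H2 genes with no batch term (0.0763 to 0.138) and of *H2-Ab1* and *Ciita* with collection day in the model (0.054 and 0.0507), and the fit of the 2 groups those of *H2-Eb1* and *Ciita* (0.058 and 0.175). The *Ciita* call in 9-month-old males was lost in the fit of the 2 groups (0.101), with 1 fit (0.669) and with uncorrected counts and no batch term (0.0833), which also ended that of *H2-Aa* in 18-month-old males (0.0539).

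Between D12 and D28, *Cd74* and *H2-Ab1* fell in 3-month-old males. The log2 differences were -1.67 for *Cd74* (standard error 0.18, adjusted p = 0.033) and -1.60 for *H2-Ab1* (0.16, adjusted p = 0.043), which were the 2 calls among 42 tests. The share called lower over all genes was 0.214%. For *Cd74* the other groups gave -1.13 (0.38) in 3-month-old females, -1.25 (0.45) in 9-month-old males, -1.40 (0.55) in 18-month-old males, 0.42 (0.67) in 9-month-old females and 0.08 (1.21) in 18-month-old females. *Ciita* had negative values in 6 of 6 groups, from -0.13 to -2.73, with an unadjusted p under 0.05 in 5 and no adjusted p below 0.547. The *Cd74* call was lost without naive replicate 3, D12 replicate 1, 3 or 4 or D28 replicate 1 or 3 (adjusted p 0.0518 to 0.262), and the *H2-Ab1* call without naive replicate 2 or 3, D12 replicate 1 or 4 or any of the 3 D28 libraries (0.0599 to 0.292). Both calls were lost with uncorrected counts and no batch term (0.119 and 0.132) and with 1 fit over all groups (1.0 for both), and that of *H2-Ab1* also in DESeq2 (0.0604) and in the fit of the 2 groups (0.0707). In 18-month-old females the *Cd74* value was -0.25, -0.32 and -0.30 without D12 replicate 4, 2 and 1. Over all single libraries left out in that group, it ran from -0.32 to 3.43.

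Age and sex were compared at each stage, and the change from naive was compared between ages and between sexes. No member passed an adjusted p of 0.1 in any of these edgeR tests, 80 for age, 60 for sex, 42 for sex by day and 56 for age by day. Unadjusted p values under 0.05 numbered 17, 12, 10 and 9, where 6.92%, 4.89%, 5.87% and 6.76% of the tests over all genes had one. The shares of all genes called in either direction at an adjusted p of 0.1 were 0.37%, 0.0621%, 0.0124% and 0.132%. By age, *Cd74* in naive males was higher at 9 than at 3 months by 1.34 on the log2 scale (standard error 0.30, adjusted p = 0.57) and in naive females lower at 18 than at 3 months, at -1.54 (0.50, adjusted p = 0.83). In females at D28 the 4 chain genes were 0.99 to 1.10 higher at 9 than at 3 months (adjusted p 0.706 to 0.906).

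By sex, males at 3 months had *Cd74* at -1.02 relative to females when naive (standard error 0.35, adjusted p = 0.61) and at 0.84 at D12 (0.28, adjusted p = 0.55). At D12 in 3-month-old mice the other class II chains and H2-DM had the same sign, from 0.61 for *H2-DMa* to 0.90 for *H2-Ab1*, with adjusted p of 0.498 to 0.718. At 9 months and D28 the sign was opposite, with *Cd74* in males at -1.15 relative to females (0.35, adjusted p = 1.0). The sex by day term of *Cd74* at 3 months and D12 was 1.86 (0.49, adjusted p = 0.29). The age by day term of *Cd74* for 9- against 3-month-old males at D12 was -2.18 (0.49, adjusted p = 0.56).

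Some of these terms changed side with the method or with 1 library. The age by day term of *Cd74* in males passed in DESeq2 (-2.17, adjusted p = 0.0126) and without 9-month-old male D12 replicate 4 (-2.63, adjusted p = 0.013). The difference in naive *Cd74* between 9- and 3-month-old males passed in DESeq2 (1.32, adjusted p = 0.018) and without 9-month-old male naive replicate 1 (1.57, adjusted p = 0.000246). Without 3-month-old female D12 replicate 1 the sex by day term at D12 was 2.24 (adjusted p = 0.0988) and the sex difference at D12 was 1.23 (adjusted p = 0.0835). Without 9-month-old female D28 replicate 1 the sex difference at 9 months and D28 was -1.41 (adjusted p = 0.0948). Other libraries left out made these *Cd74* terms smaller. Over all of them, sex by day at 3 months and D12 ran from 1.28 to 2.24. The sex difference ran from 0.67 to 1.23 at 3 months and D12, and from -1.41 to -0.80 at 9 months and D28. In naive 3-month-old mice it ran from -1.20 to -0.435. In males, naive 9 against 3 months ran from 1.04 to 1.57, and age by day from -2.63 to -1.90.

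The members did not rise by equal amounts. Ratios between members within a library need no scaling between libraries, and they were compared between days by permuting the day labels within age and sex (2-sided, 100000 permutations, 18 tests adjusted together, log2 of CPM plus 0.5). The 2 I-A chains shifted towards the alpha chain: the median ratio of *H2-Aa* to *H2-Ab1* was 0.645 in naive libraries, 0.839 at D12 and 1.02 at D28. In log2 this was 0.53 higher at D12 than when naive (permutation test, adjusted p = 0.0099, higher in 6 of 6 groups), 0.88 higher at D28 (adjusted p = 4.5e-05, 6 of 6) and 0.35 higher at D28 than at D12 (adjusted p = 0.00715, 5 of 6). The smallest p that these permutations can give is 1e-05. The batch correction scaled these 2 genes unequally. In uncorrected counts the naive, D12 and D28 median ratios of *H2-Aa* to *H2-Ab1* were 0.551, 0.619 and 0.835 on the first collection day. On the second they were 0.601, 1.03 and 1.17, so the D12 shift was smaller on the first day. With uncorrected counts 13 of the 18 ratio tests passed, as with corrected counts.

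*H2-Eb1* to *H2-Ab1* moved in the same way, with median ratios of 0.335, 0.438 and 0.486 and log2 differences of 0.38 at D12 (permutation test, adjusted p = 0.0199, higher in 5 of 6 groups), 0.64 at D28 (adjusted p = 4.5e-05, 6 of 6) and 0.26 between the days (adjusted p = 0.0146, 5 of 6). That last value was between 0.256 and 0.258 with adjusted p of 0.0523 to 0.0532 on leaving out 18-month-old female D28 replicate 2, 3 or 4. *Cd74* to *H2-Ab1* had median ratios of 1.99, 3.02 and 3.16, with log2 differences from naive of 0.33 at D12 (permutation test, adjusted p = 0.0199, 5 of 6) and 0.47 at D28 (adjusted p = 0.000108, 6 of 6). Between D12 and D28 it differed by 0.15 (adjusted p = 0.154, 3 of 6). The ratio of invariant chain to I-A beta chain was thus higher after injection, and its difference between the 2 days did not pass the test.

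*H2-DMa* to *H2-Ab1* went the other way, from a median ratio of 2.30 in naive libraries to 0.244 at D12 and 0.416 at D28. The log2 differences from naive were -3.00 at D12 and -2.63 at D28 (permutation test, adjusted p = 4.5e-05 for both, lower in 6 of 6 groups). *H2-DMa* to *H2-DMb1* stayed at medians of 3.49, 3.29 and 3.59, with differences from naive of -0.09 (adjusted p = 0.397) and 0.10 (adjusted p = 0.364). Between D12 and D28 it was 0.19 higher (permutation test, adjusted p = 0.0222, 4 of 6 groups), with values of 0.169 to 0.178 and adjusted p of 0.0515 to 0.0653 without 9-month-old male D28 replicate 3, 18-month-old male D12 or D28 replicate 2, or 18-month-old female D28 replicate 2. *Ciita* to *H2-Ab1* was lower at D28 than at D12, by a mean log2 difference of -1.21 (permutation test, adjusted p = 0.00054, lower in 5 of 6 groups). Its differences from naive depended on the pseudocount, since most naive libraries held 0 *Ciita* counts: at D12 the value was 0.94 (adjusted p = 0.0199) with 0.5 CPM and -0.50 (adjusted p = 0.105) with 2 CPM, and at D28 it was -0.27 (adjusted p = 0.473) and -1.46 (adjusted p = 3.6e-05).

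**Figure D5:**
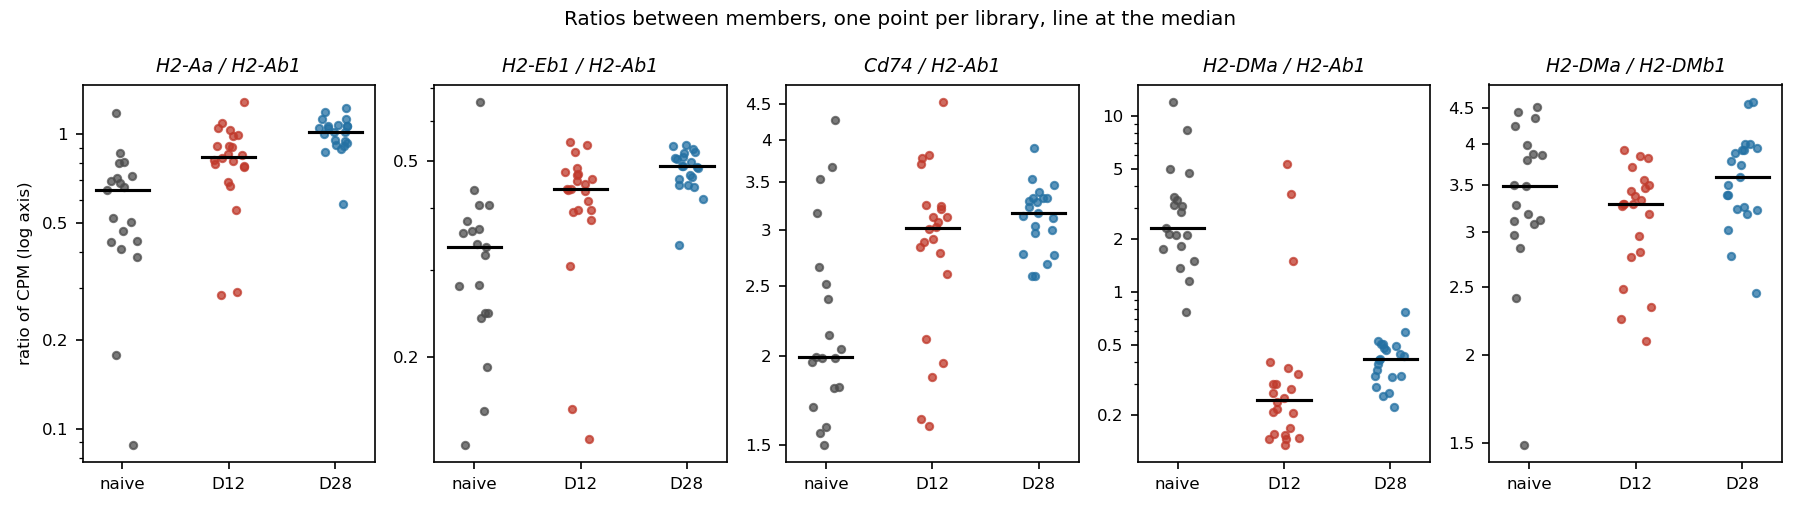
Ratios between members within each library on log axes, for naive, D12 and D28 libraries, one point per library with a bar at the median. *H2-Aa*, *H2-Eb1* and *Cd74* relative to *H2-Ab1* are higher after injection, and *H2-DMa* relative to *H2-Ab1* drops from a median of 2.30 to 0.244 at D12 while *H2-DMa* relative to *H2-DMb1* keeps medians of 3.29 to 3.59.

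The libraries were collected on 2 days, and each of the 18 groups had at least 1 library from each. The submitters' batch correction scaled the members unequally: the median ratio of corrected to uncorrected CPM on the first and second day was 0.708 and 1.38 for *Cd74*, 0.787 and 1.29 for *H2-Ab1*, and 0.991 and 1.05 for *H2-Aa*. In the uncorrected counts compared within 1 collection day, *Cd74* was above naive in 11 of 12 comparisons at D12, with log2 differences of -1.49 to 6.32, and in 12 of 12 at D28, with 1.63 to 5.02. *H2-Aa*, *H2-Ab1* and *H2-Eb1* gave 11 and 12 of 12, *Ciita* 11 and 11, *H2-DMa* 10 and 12, and *H2-DMb1* 11 and 10. For *Cd74* the comparison below 0 was that of 18-month-old females on the first day, with 2 D12 libraries and 1 naive library.

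Dendritic cells, B cells, monocytes and border macrophages can also carry class II, and their summed markers had lower medians after injection than in naive libraries. The 8 dendritic cell markers summed to a median of 77.8 CPM when naive (45.5 to 168), 67.1 at D12 (37.4 to 100.4) and 61.0 at D28 (34.3 to 78.2), with *Cd209a* at 0 in 16 of 19, 21 of 22 and 19 of 21 libraries. The 7 B cell markers summed to 110 (10.9 to 143), 49.0 (20.4 to 87.3) and 58.2 CPM (34.7 to 98.2). *Cd79b* alone had medians of 89.9, 43.8 and 54.1 CPM, and *Pax5* was at 0 in 17 of 19, 18 of 22 and 17 of 21 libraries. The 8 markers of monocytes and border macrophages summed to 236 (36.5 to 522), 61.7 (6.09 to 1006) and 15.6 CPM (2.16 to 98.0). T cell markers, of which 7 of 8 were measured, had a median of 1.29 CPM when naive (0 to 183), 122 CPM at D12 (1.60 to 395) and 72.0 CPM at D28 (14.4 to 191). The 8 markers of retinal neurons and Müller glia had medians of 1845 (684 to 3234), 846 (474 to 2577) and 1390 CPM (726 to 2414), and microglial marker sums had medians of 20968, 5778 and 10533 CPM. Each sum pools several genes, that of monocytes and border macrophages over 2 kinds of cell, and a lower sum does not count cells. The part of RNA from T cells or from any of these other cell types in the class II values was not tested. Nor was the part of the lower microglial markers.

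Among the reported genes that act before and around class II, *Irf1*, *Ctsb* and *H2-Oa* were called at D12. At D28 none was called, where 0.402% of tests over all genes were called in either direction. Of 6 genes for *Ciita* induction, *Irf1*, the interferon-induced factor that acts on the *Ciita* promoter, was called at D12 in 3 of 6 groups, with log2 fold changes of 1.42 to 3.00 over all 6. The calls were in 3-month-old males (2.56, standard error 0.20, adjusted p = 5.22e-06), 9-month-old females (2.20, 0.32, adjusted p = 0.012) and 18-month-old males (3.00, 0.30, adjusted p = 5.92e-05). The receptor gene *Ifngr1* had values of -1.37 to -0.06 and *Jak1* of -0.29 to 0.10, and neither was called. Median levels of *Irf1* were 77.5 CPM when naive, 361 at D12 and 169 at D28. The list made 3 calls of 36 tests with a median log2 fold change of 0.06, where the share of all genes called higher was 1.64% and the median over all genes lay between -0.01 and 0.11 in the 6 groups. At D28 the log2 fold changes of *Irf1* were 0.44 to 1.57 without a call, with the lowest adjusted p of edgeR's quasi-likelihood test in 3-month-old males (1.45, standard error 0.21, unadjusted p = 0.00511, adjusted p = 0.347).

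The factors that bind the class II boxes, *Rfx5*, *Rfxank*, *Rfxap*, *Nfya*, *Nfyb*, *Nfyc* and *Creb1*, gave 0 calls of 42 tests at D12 and 0 of 42 at D28. Their median log2 fold changes were -0.21 and -0.12. Over all genes, 2.3% of tests at D12 and 0.402% at D28 were called in either direction. Counts of 0 or 1 in lists of this size lie near that share. Of 7 antigen processing genes, *Ctsb*, a lysosomal protease, was called at D12 in 3-month-old males (2.16, standard error 0.21, adjusted p = 0.000134), the 1 call of 42 tests, and the list's median was 0.46. *Ifi30*, a lysosomal thiol reductase, had log2 fold changes of 1.05 to 2.10 without a call. *Ctss*, the protease that trims the invariant chain, was abundant throughout, with median levels of 23632 CPM when naive, 34610 at D12 and 34318 at D28, and log2 fold changes of 0.21 to 0.75 at D12. None of the 18 tests of the surface turnover genes *Marchf1*, *Marchf8* and *Cd83* passed at either day.

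H2-O, a heterodimer of *H2-Oa* and *H2-Ob*, modulates H2-DM. *H2-Oa*, its alpha chain, was called at D12 in 3-month-old males (2.16, standard error 0.25, adjusted p = 0.000881) and 18-month-old males (1.68, 0.24, adjusted p = 0.0345). These were the 2 calls of 18 tests in its list, where 1.64% of tests over all genes were called higher. The list had a median log2 fold change of 0.91. The median level of *H2-Oa* was 52.3 CPM when naive, 160 at D12 and 134 at D28. *H2-Ob*, the beta chain, had log2 fold changes of -1.55 to -0.17 at D12 without a call, and medians of 77.9, 46.5 and 66.0 CPM. The difference between the 2 chains was not tested. *H2-DMb2* had values of -0.11 to 1.99 without a call, and *H2-Eb2* was too low to be tested, at no more than 2.03 CPM in any library. At D28 the list made 0 calls of 18 tests, where 0.359% of tests over all genes were called higher.

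Within groups, the members varied together from retina to retina. The Pearson correlation of each member's deviations from its group mean with the mean of the other 6, over 62 libraries, was 0.974 for *H2-Ab1*, 0.958 for *H2-Eb1*, 0.928 for *Cd74*, 0.923 for *H2-Aa*, 0.701 for *H2-DMa*, 0.621 for *H2-DMb1* and 0.567 for *Ciita*. Among the 13584 genes compared, high values of genes that are no members against the members' mean were those of *Psmb9* (0.750), an immunoproteasome subunit, *Plaat3* (0.748), *Calhm6* (0.733), *Il18bp* (0.732), *AW112010* (0.718), *Psmb8* (0.686), *Prdx5* (0.656), *Sat1* (0.656) and *Slamf8* (0.654). These values describe libraries that share sorting, depth and batch correction, and 18-month-old female D12 libraries contribute the widest deviations of the members.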

How the data were processed

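Microglia (tdTomato-high, DRAQ7-negative) were sorted from single retinae, and cDNA was made with SMART-Seq v4 and Nextera XT kits for single-end sequencing. Alignment by the authors used STAR 2.7.8a and mm10, and reads were counted per gene with featureCounts on the UCSC refGene annotation, and the counts were corrected for collection day with ComBat_seq. Per the submitters' processing notes, bcl2fastq 2.20 and R 4.2.2 were also used. The deposited values are whole-number counts per gene, 1 table corrected and 1 uncorrected. An adjusted count is no longer a number of reads, so counting intervals and floors here are approximate.

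CPM were computed from the column totals. Tests used edgeR 4.0.16 in R 4.3.3 on the whole corrected table (TMM, filterByExpr, quasi-likelihood fits, Benjamini-Hochberg adjustment over all genes tested). Day contrasts were fitted per age and sex over its 3 groups and tested against a log2 fold change of 1 at an adjusted p of 0.05. Age, sex and interaction terms used the plain quasi-likelihood test at 0.1. A standard error is the log2 fold change divided by the square root of the F statistic. Ratios were tested by permutation within age and sex. The fits were tested on simulated data. Alternatives were DESeq2 1.42.0, its size factors, no low-count filter, uncorrected counts, a replicate block, other fits, other labels of 1 library and leaving out each library. Labels name separate animals' retinae only by replicate number, so p-values measure the spread between these libraries. No libraries within a group had identical values.

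The members and gene lists were chosen with earlier results of these data known. Every member is named in every comparison, genes of the pathway lists where called at least once plus a few others, the most similar genes by correlation, and marker lists by their sums. A few genes of these lists are not reported here, and the counts and sums leave them out. Exon lengths and positions came from GENCODE vM21.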

Additional observations from a re-analysis of the deposited data

Results flagged for a closer look

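For each of the 7 members in each of the 9 groups of 4 libraries, the gap of the highest or lowest library to its neighbour was set against the group's range. A library stood apart in 9 of these 63 combinations, which fall in 4 groups. Chance gives about 1 in 20 for independent values without ties, but the members vary together, so these combinations are not independent. The D12 replicate 3 of 18-month-old females accounted for 6 of them, with *Cd74* at 19520 CPM (next highest 1197), *H2-Ab1* at 6030 (369), *H2-Aa* at 4993 (255), *H2-Eb1* at 2646 (140), *H2-DMa* at 1430 (550) and *Ciita* at 29.9 CPM (2.46). This library lies within the range of D12 libraries of the other ages and sexes for these genes. The other 3 libraries of its group lie below that range for each of these genes. For *Ciita* the margin was narrow, at 2.46 CPM or less against a lowest value of 2.85 CPM.

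Naive replicate 1 of 3-month-old females held *Cd74* at 2293 CPM (next highest 889), and it also had the highest naive sum of monocyte and border macrophage markers, 522 CPM. The part of those markers in the *Cd74* value was not tested. D28 replicate 4 of 3-month-old females held *H2-DMb1* at 309.8 CPM (next highest 246). Naive replicate 4 of 18-month-old males held *Ciita* at 1.82 CPM, from 7 counts, and the other 3 libraries of its group held 0. With 0 in all the others, any library with counts stands apart by this rule.

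The 2 libraries that entered no comparison had class II levels above every naive library in the uncorrected counts. The 7 members summed to 19514 CPM in the library labelled 18-month-old female D28 replicate 1 and to 25204 CPM in the library labelled 9-month-old male D28 replicate 1, against 749 to 6571 CPM in naive libraries.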

How the results depend on the processing

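The upward calls against naive numbered 25 at D12 and 16 at D28. At D12 they numbered 19 to 28 over all alternatives. At D28 they were 9 with uncorrected counts and no batch term, 6 with 1 fit over all groups, and 13 to 22 otherwise. The 2 calls between D28 and D12 became 1 with DESeq2, 1 in fits of the 2 groups compared (an alternative chosen after seeing the data), 5 with the plain quasi-likelihood test, and 0 with uncorrected counts and no batch term, with the replicate block or with 1 fit. For age, 0 calls became 2 with DESeq2 and 8 with no low-count filter. With no filter, sex gave 5 calls, sex by day 6 and age by day 1, and age by day also gave 1 with DESeq2 and 1 with uncorrected counts and collection day in the model. The cause of these changes was not tested. With DESeq2 size factors, and with the library of 2 day labels moved or left out, no result changed side.

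Values that changed sign were *H2-DMb1* at D28 in 9-month-old males (-0.039 with the replicate block), *Cd74* between D28 and D12 in 9-month-old females (-0.10 with uncorrected counts and no batch term) and *Ciita* to *H2-Ab1* at D12 (-0.50 with a pseudocount of 2 CPM).

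Leaving out each of 62 libraries in turn gave 21 to 26 calls at D12, 12 to 18 at D28, 0 to 2 between the days, 0 to 4 for age, 0 to 2 for sex, 0 to 4 for sex by day, 0 to 3 for age by day and 11 to 13 of the 18 ratio tests (13 with all libraries). In 9-month-old females at D12, *H2-DMa* ran from -0.081 to 0.80 and *H2-DMb1* from -0.090 to 0.74 (lowest without D12 replicate 1). In 18-month-old females at D12, *H2-DMa* ran from -0.089 to 0.66 and *Ciita* from -0.33 to 4.21 (lowest without D12 replicate 3), and *Cd74* between D28 and D12 ran from -0.32 to 3.43. Where a group is left with 1 library, it is assumed to vary like the other groups of the fit.

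The replicate numbers did not pair the libraries: deviations of same-numbered libraries correlated at -0.01 on average, those of other pairs at 0.004, and 7 of 62 libraries correlated best with their own number. The replicate block gave 19 calls at D12, 13 at D28 and 0 between the days. A few alternatives that left no residual degrees of freedom could not be fitted. Depth limits *Ciita*, at 3 counts or fewer in 14 of 19 naive libraries.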
